A study of Mus musculus with 42 samples.

Results

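Polycomb proteins work as 2 complexes whose catalytic cores are joined by exchangeable subunits, and the genes of 9 such subunits were followed through the differentiation of mouse embryonic stem cells into embryoid bodies. The set was given by name as Cbx2, Cbx6, Cbx7 and Cbx8 of Polycomb repressive complex 1, and Ezh1, Ezh2, Jarid2, Phf19 and Mtf2 of Polycomb repressive complex 2. Of these 9 genes, 8 were analysed out of 14296 genes in all, and Cbx8 was not analysed here. The set carries the name subunit exchange, which would have one paralog give way to another. For the pairs in it, the data went partly against that name. Ezh1 and Cbx2, the paralogs of Ezh2 and Cbx7, did not end above their starting levels. The mean of 8 of 8 genes was lower at 120 h than at 0 h. Of these, 4 passed adjusted p < 0.0001 (limma), where 10.1% of all genes were called lower. The median log2 change was -0.74 for these genes and -0.021 over all genes. Relative to Cbx7, however, Cbx2 was 0.83 higher at 120 h (limma adjusted p = 9.26e-07), where 41.3% of all genes were called relative to Cbx7. In that comparison Cbx7 itself differed from 0 h by -0.93 and Cbx2 by -0.10. Both Cbx2 libraries lay above both 0 h libraries at 11 of 20 later times, and below them at 5.

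Polycomb repressive complex 2 (PRC2) places methyl groups on lysine 27 of histone H3, and its enzyme is either Ezh2, the form typical of dividing cells, or Ezh1, the form better known from resting cells. Jarid2, Mtf2 and Phf19 are accessory subunits that help PRC2 find and hold its target genes. Canonical Polycomb repressive complex 1 (PRC1) reads that methyl mark through 1 chromobox (Cbx) protein at a time. Cbx7 is the chromobox protein best known from embryonic stem cells, and Cbx2 is best known from committed cells.

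The cells were of W9.5, a mouse embryonic stem cell line of strain background 129X1/SvJ, with no genetic change named in the labels, so that all groups shared one genotype and differed in time. Leukemia inhibitory factor was withdrawn to start spontaneous differentiation, and cultures were harvested every 6 h up to 120 h, which gave 21 times including the start. Replicates A and B are biological duplicate courses of that single line with 1 library a time each, 42 libraries in all. The libraries held 10120972 to 51652434 counted reads, with a median of 29692082. Levels are in log2 CPM, read counts scaled to library size on a log2 scale, so that a step of 1 is a doubling, and the 8 genes had between 95 (Phf19) and 31672 (Jarid2) reads in a library. The tissue is a mixture whose makeup changes with time, and in such bulk samples fewer cells of a type and less RNA per cell cannot be told apart. The summed level of 6 pluripotency markers was 3404 and 3669 CPM at 0 h, and 1582 and 1532 CPM at 120 h, where 5 of 6 had fallen and 1 had not passed the test. The libraries of 96 h stood apart: the median SD between duplicates over all genes was 0.288 there on the log2 scale against 0.064 at the time point with the closest duplicates. At 96 h the summed level of 4 primitive streak markers was 101 CPM in replicate A and 474 CPM in replicate B. The sums of 4 epiblast markers (585 and 400 CPM) and of 4 fibroblast markers (23.7 and 9.01 CPM) also differed between the 96 h duplicates, and their part in the values of that time was not tested.

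Upstream sequences are shown for the 3 genes whose time courses carry most of what follows, Mtf2 and Jarid2, which moved together, and Ezh1, whose course was least like the others. Each is the window of 250 bases before the annotated start, written 5′ to 3′ on the strand of the gene, from RefSeq on GRCm38.p6, and none of the 3 windows held exonic bases of GENCODE vM21. Capitals mark a CCAAT box, read on either strand.
Mtf2 (chr5:108065424-108065673, plus strand): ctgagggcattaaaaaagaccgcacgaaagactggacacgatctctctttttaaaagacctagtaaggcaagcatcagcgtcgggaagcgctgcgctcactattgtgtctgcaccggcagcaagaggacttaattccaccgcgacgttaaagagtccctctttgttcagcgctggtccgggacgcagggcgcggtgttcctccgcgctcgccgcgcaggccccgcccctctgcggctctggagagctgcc
Jarid2 (chr13:44730524-44730773, plus strand): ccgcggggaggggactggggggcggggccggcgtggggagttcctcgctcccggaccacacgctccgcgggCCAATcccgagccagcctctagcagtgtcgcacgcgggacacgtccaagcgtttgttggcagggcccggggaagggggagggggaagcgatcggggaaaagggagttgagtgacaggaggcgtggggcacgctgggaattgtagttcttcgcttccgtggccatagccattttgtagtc
Ezh1 (chr11:101226464-101226713, minus strand): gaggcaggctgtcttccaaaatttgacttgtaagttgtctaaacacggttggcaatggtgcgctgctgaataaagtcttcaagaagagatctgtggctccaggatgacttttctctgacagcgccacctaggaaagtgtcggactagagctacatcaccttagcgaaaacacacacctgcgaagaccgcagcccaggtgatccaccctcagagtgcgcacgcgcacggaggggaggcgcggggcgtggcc
Promoter windows were matched for 7 of the 8 genes, of which Mtf2 and Jarid2 have 2 windows each, and the one further upstream is shown. The search covered CCAAT and 3 forms of the site of E2F, the factor that drives genes of DNA replication, namely TTTGGCGC, TTTCCCGC and TTTCGCGC, on both strands. Of 32851 promoter windows of the same length, 33.8% held CCAAT and 1.53% held one of the E2F forms. Jarid2 held 1 CCAAT on its own strand at -179 from the start, and neither the Mtf2 nor the Ezh1 window shown held a match. The second window of Mtf2 (chr5:108077915-108078164) held 1 CCAAT, at -98, and that of Jarid2 (chr13:44731021-44731270) held none, so the presence of CCAAT in these genes depends on the window. Ezh2 held 3 CCAAT, at -90, -64 and -11, Cbx7 held 1 at -190, and Phf19 held the 1 E2F form found among the set, at -208. Unlike the windows shown, these held exonic bases of GENCODE vM21: 125 in Ezh2, 122 in Cbx7 and 61 in Phf19. A match is a description of letters and says nothing of binding. The GC content of the windows shown was 59.2% in Mtf2, 67.2% in Jarid2 and 55.2% in Ezh1, and that of the second windows was 46.8% in Mtf2 and 64.8% in Jarid2, beside a median of 52.4% over all windows.

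All 8 genes changed over the time course (limma moderated F-test over 21 time points, adjusted p < 0.0001), where 74.6% of all genes did. The range of the time-point means was widest for Jarid2, at 2.60 on the log2 scale (6.07-fold), and narrowest for Ezh2, at 0.71 (1.64-fold). Phf19 spanned 4.80-fold, Ezh1 3.31-fold, Cbx7 2.80-fold, Mtf2 2.62-fold, Cbx2 2.52-fold and Cbx6 1.92-fold. The F statistic of Jarid2 was 127.4, above that of 98.4% of all genes, and those of Ezh1, Cbx2 and Cbx6 lay between the 53.6th and the 56.6th percentile. Replicates A and B followed each other over the 21 time points, with a Pearson correlation from 0.84 in Ezh1 to 0.99 in Jarid2.

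**Figure D1:**
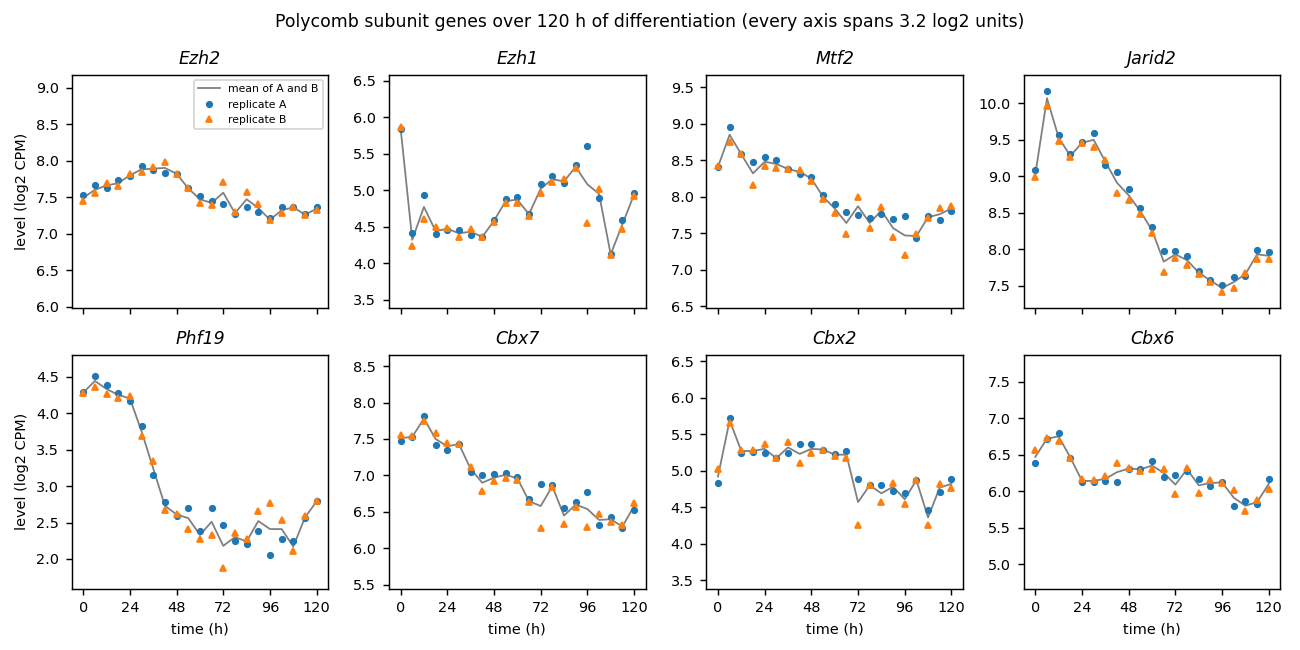
Level of each subunit gene (log2 CPM, vertical axis) against time (h, horizontal axis), with replicate A as circles, replicate B as triangles and their mean as a line; every panel spans 3.2 log2 units. Jarid2 rises to 10.07 at 6 h and then declines to 7.47 at 96 h, Phf19 drops between 24 h and 48 h, Ezh1 drops within the first 6 h, and Ezh2 moves least.

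Ezh1, on chromosome 11 (GRCm38, 101191115-101226463, minus strand), fell within the first 6 h to 0.346 of its starting level. It stood at 5.84 and 5.86 log2 CPM at 0 h, in replicates A and B, and at 4.41 and 4.23 at 6 h. Both 6 h libraries were lower than both 0 h libraries, and the change was -1.53 (SE 0.17, a 2.89-fold fall, limma adjusted p = 2.43e-08). At 24 h the libraries stood at 4.46 and 4.48, a change from 0 h of -1.38 (SE 0.17, adjusted p = 1.89e-07). The mean then stayed between 4.36 and 4.47 from 18 h to 42 h, and it was 4.58 at 48 h and 5.32 at 90 h. None of the steps from 24 h to 48 h (0.11), 48 h to 72 h (0.44) and 72 h to 96 h (0.06) passed the test. At 96 h replicate A stood at 5.60 and replicate B at 4.55, the widest gap of the gene, and without 96 h the pooled SD between duplicates was 0.08 in place of 0.18. The duplicates were close again at 108 h, at 4.13 and 4.11, the lowest mean of the course. By 120 h they had reached 4.96 and 4.92, still 1.88-fold under 0 h (change -0.91, SE 0.17, adjusted p = 6.17e-05). This last call was lost when any 1 library of 0 h or 120 h was left out (adjusted p from 0.000914 to 0.00135), with changes from -0.93 to -0.89. Both Ezh1 libraries lay below both 0 h libraries at 20 of 20 later time points.

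Ezh2, on chromosome 6 (47530139-47595341, minus strand), was the steadiest of the 8 genes. Its duplicates stood at 7.53 and 7.45 log2 CPM at 0 h, 7.79 and 7.82 at 24 h, 7.82 and 7.82 at 48 h, and 7.37 and 7.32 at 120 h. The mean was highest at 42 h, at 7.90, and lowest at 96 h, at 7.19 (7.21 and 7.18), with a pooled SD between duplicates of 0.07. No step of Ezh2 passed the threshold, and the values nearest to it were those from 72 h to 96 h (-0.37, SE 0.09, adjusted p = 0.00232) and from 0 h to 24 h (0.31, SE 0.09, adjusted p = 0.00297). The duplicates of 72 h were 7.41 and 7.71, and the step from 72 h to 96 h was -0.51 without the first and -0.22 without the second. At 120 h it differed from 0 h by -0.15 (SE 0.09, adjusted p = 0.16). The summed level of 7 proliferation markers was 3143 and 2824 CPM at 0 h, 3751 and 3757 CPM at 24 h, and 2223 and 2163 CPM at 120 h, and the part of proliferation in the level of Ezh2 was not tested.

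Within a library, the ratio of Ezh1 to Ezh2 does not depend on library size. It compares the mRNA reads of the paralogs without correction for exon length, which does not affect differences between times. Protein was not measured, so it does not show which subunit the complex holds. That log2 ratio stood at -1.69 and -1.59 at 0 h and at -3.25 and -3.32 at 6 h. The fall of 1.64 at 6 h (SE 0.19, 3.13-fold, adjusted p = 3.25e-08) passed the test, as 23.2% of all genes did when measured relative to Ezh2. At 24 h the ratio was 1.69 under 0 h (SE 0.19, adjusted p = 2.14e-08), beside 22.8% of all genes. It was lowest at 42 h, with a mean of -3.54, and had a mean of -2.03 at 90 h. At 96 h replicate A stood at -1.61, near its value at 0 h, while replicate B stood at -2.62. Both libraries lay below both 0 h libraries at 19 of 20 later time points, and at 120 h they stood at -2.41 and -2.41. The difference of -0.77 between 120 h and 0 h (SE 0.19) missed the threshold with adjusted p = 0.0011, beside 20.5% of all genes called. It passed without the 96 h library of replicate A (adjusted p = 6.97e-06) or of replicate B (adjusted p = 6.88e-06).

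Jarid2, on chromosome 13 (44729474-44921643, plus strand), had the largest excursion. This accessory subunit binds nucleosomes and joins PRC2 at its targets in embryonic stem cells. Its duplicates stood at 9.08 and 8.99 log2 CPM at 0 h, 10.17 and 9.97 at 6 h, 9.47 and 9.45 at 24 h, 8.82 and 8.67 at 48 h, 7.98 and 7.88 at 72 h, 7.51 and 7.42 at 96 h, and 7.96 and 7.86 at 120 h. The groups at 0 h, 6 h, 48 h and 96 h did not overlap. Jarid2 rose 2.05-fold within 6 h (1.03, SE 0.10, adjusted p = 2.65e-09) and fell 1.64-fold from 24 h to 48 h (-0.71, SE 0.10, adjusted p = 3.32e-06) and 1.76-fold from 48 h to 72 h (-0.82, SE 0.10, adjusted p = 5.58e-07). At 120 h it was 2.18-fold under 0 h (-1.13, SE 0.10, adjusted p = 4.06e-10). The fall from 24 h to 48 h lost its call without the 24 h library of replicate A (adjusted p = 0.000168), the 24 h library of replicate B (0.00012) or the 48 h library of replicate B (0.000397). With the replicate letter as a block, in a paired fit, 2 more steps of Jarid2 passed: 24 h against 0 h (0.42, adjusted p = 3.84e-05, against 0.000958 unblocked) and 96 h against 72 h (-0.46, adjusted p = 6.09e-05, against 0.00139 unblocked).

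Mtf2 and Phf19 are 2 of the Polycomb-like proteins, which read a methylated histone H3 through a Tudor domain and bind PRC2 through a shared surface. Mtf2, on chromosome 5 (108065674-108109004, plus strand), stood at 8.41 and 8.42 log2 CPM at 0 h, 8.95 and 8.75 at 6 h, 8.27 and 8.22 at 48 h and 7.81 and 7.87 at 120 h. Its values at 96 h were 7.74 in replicate A and 7.20 in replicate B, the widest pair of the gene. No step passed the test for Mtf2. The difference from 0 h was 0.44 at 6 h (SE 0.13, adjusted p = 0.00573) and -0.57 at 120 h (SE 0.13, adjusted p = 0.000564), and the latter passed without the 96 h library of replicate A (adjusted p = 4.97e-05) or of replicate B (4.99e-05). In GENCODE vM21, 6.9% of the exonic bases of Mtf2 are shared with Tmed5 on the opposite strand.

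Phf19, on chromosome 2 (34893757-34914026, minus strand), stayed level for a day and then dropped. It stood at 4.29 and 4.27 log2 CPM at 0 h, 4.16 and 4.24 at 24 h, 3.15 and 3.34 at 36 h, and 2.59 and 2.62 at 48 h. The 48 h libraries were both lower than both 24 h libraries, a 3.02-fold fall (-1.59, SE 0.18, adjusted p = 1.20e-07). From 48 h on the mean stayed between 2.17 and 2.79. At 96 h the duplicates were 2.05 and 2.77, and at 120 h they were 2.79 and 2.80, which was 2.80-fold under 0 h (-1.49, SE 0.18, adjusted p = 1.26e-07). It had the fewest reads of the set, with a median of 180 in a library.

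Relative to Mtf2, both of the other accessory subunits ended lower, without passing the test. The log2 ratio of Phf19 to Mtf2 stood at -4.12 and -4.15 at 0 h, -5.68 and -5.60 at 48 h and -5.02 and -5.07 at 120 h, with both libraries below both 0 h libraries at 19 of 20 later time points. At 120 h it differed from 0 h by -0.91 (SE 0.26, adjusted p = 0.00343), where 25.9% of all genes were called relative to Mtf2. The ratio of Jarid2 to Mtf2 stood at 0.67 and 0.57 at 0 h, 1.22 and 1.21 at 6 h and 0.15 and -0.01 at 120 h. Its differences from 0 h were 0.60 at 6 h (SE 0.15, adjusted p = 0.0011), beside 24.2% of all genes called, and -0.55 at 120 h (SE 0.15, adjusted p = 0.00221). At 96 h the Phf19 ratio was -5.69 in replicate A and -4.42 in replicate B. Without the libraries of 72 h and 96 h, a choice made after the values were seen, the Phf19 ratio passed (adjusted p = 9.73e-06) and the Jarid2 ratio did not (adjusted p = 0.000253).

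Among the chromobox genes, Cbx7, on chromosome 15 (79915807-79971119, minus strand), declined. Its duplicates stood at 7.47 and 7.55 log2 CPM at 0 h, 7.82 and 7.74 at 12 h, 7.35 and 7.44 at 24 h, 7.02 and 6.92 at 48 h and 6.53 and 6.62 at 120 h. They were 6.88 and 6.28 at 72 h and 6.78 and 6.29 at 96 h, with replicate A higher both times. At 120 h Cbx7 was 1.91-fold under 0 h (-0.93, SE 0.13, adjusted p = 1.38e-06), and both of its libraries lay below both 0 h libraries at 17 of 20 later time points. No single step between neighbouring days passed, the nearest being 48 h against 24 h (-0.43, SE 0.13, adjusted p = 0.0168). Without the 120 h library of replicate A the call at 120 h was just lost (-0.89, adjusted p = 0.000103).

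Cbx2, on chromosome 11 (119022962-119031270, plus strand), rose early and returned. It stood at 4.83 and 5.02 log2 CPM at 0 h, 5.72 and 5.66 at 6 h, 5.24 and 5.36 at 24 h, 5.37 and 5.24 at 48 h and 4.88 and 4.76 at 120 h. The rise at 6 h was 1.71-fold (0.77, SE 0.13, adjusted p = 2.04e-05), and its call was lost without any 1 of the 4 libraries of 0 h and 6 h (adjusted p from 0.000111 to 0.00136). The 72 h duplicates were 4.89 and 4.25, and the fall from 48 h to 72 h (-0.73, SE 0.13, adjusted p = 9.57e-05) lay close to the threshold. It lost its call in 35 of 42 fits with 1 library left out, and without the 72 h library of replicate B it was -0.41 (adjusted p = 0.0118). At 120 h Cbx2 differed from 0 h by -0.10 (SE 0.13, adjusted p = 0.538), with the 2 groups overlapping.

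Cbx6, on chromosome 15 (79823896-79834688, minus strand), lies 81.1 kb from Cbx7 with 0 protein-coding genes between them. Its duplicates stood at 6.38 and 6.56 log2 CPM at 0 h, 6.71 and 6.73 at 6 h, 6.13 and 6.16 at 24 h, 6.30 and 6.32 at 48 h and 6.17 and 6.03 at 120 h. No step of Cbx6 passed, and its difference from 0 h at 120 h was -0.37 (SE 0.10, adjusted p = 0.00252). Npcd shares 5.3% of the exonic bases of Cbx6 on the same strand.

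In mRNA reads, the balance between Cbx2 and Cbx7 shifted towards Cbx2. The log2 ratio of Cbx2 to Cbx7 stood at -2.65 and -2.53 at 0 h, -1.81 and -1.88 at 6 h, -2.11 and -2.08 at 24 h, -1.66 and -1.68 at 48 h and -1.66 and -1.86 at 120 h, so the groups at 6 h, 48 h and 120 h did not overlap with 0 h. It rose by 0.75 at 6 h (SE 0.12, adjusted p = 1.12e-05), beside 16.8% of all genes called relative to Cbx7. At 120 h it was 0.83 above 0 h (SE 0.12, 1.78-fold, adjusted p = 9.26e-07), beside 41.3% of all genes called. The early shift went with a higher Cbx2 level and a Cbx7 difference of 0.02, and the later one with a lower Cbx7 level and a Cbx2 difference of -0.10. Both libraries lay above both 0 h libraries at 19 of 20 later time points. The exception was 12 h, when they stood at -2.58 and -2.45. Without the 120 h library of replicate A the shift at 120 h was 0.73 (adjusted p = 0.000177) and no longer passed. Cbx6 relative to Cbx7 stood at -1.09 and -0.99 at 0 h and at -0.36 and -0.59 at 120 h, a difference of 0.57 (SE 0.15, adjusted p = 0.00129) that missed the threshold, and passed without the libraries of 72 h and 96 h (adjusted p = 4.56e-05).

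**Figure D2:**
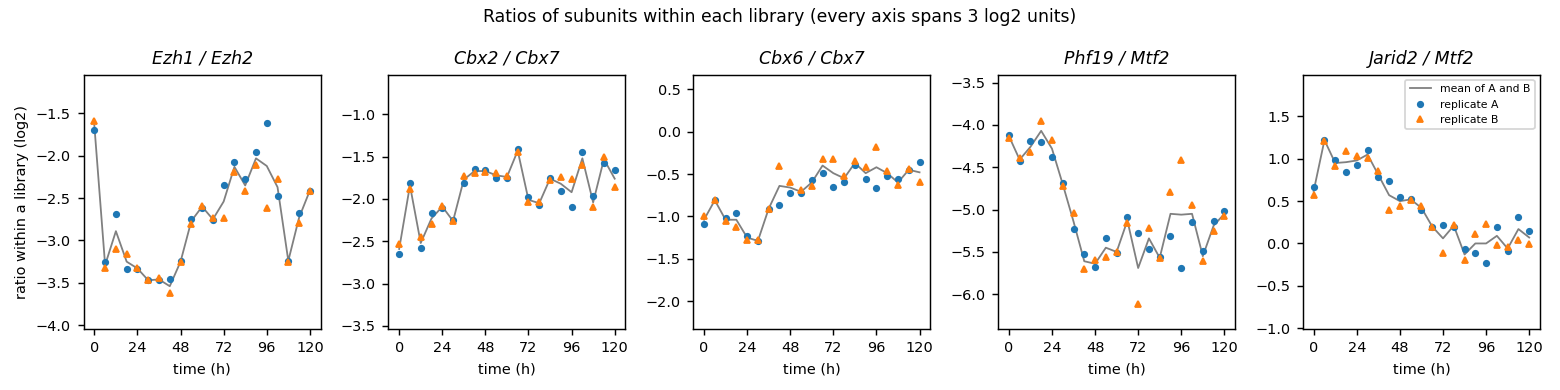
Log2 ratio of 2 subunit genes within each library (vertical axis) against time (h, horizontal axis), with replicate A as circles, replicate B as triangles and their mean as a line; every panel spans 3 log2 units. Ezh1 to Ezh2 is lowest at 42 h (-3.54), and Phf19 to Mtf2 drops from -4.28 at 24 h to -5.64 at 48 h. Cbx2 to Cbx7 has a mean of -2.59 at 0 h and higher means at all later times, though at 12 h (-2.52) the libraries overlap those of 0 h.

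Counted over the set, between 0 and 4 of the 8 genes passed in a comparison, and no gene passed in all of them. At 6 h against 0 h, 2 of 8 rose (Cbx2 and Jarid2), where 11.8% of all genes did, and 1 fell (Ezh1), where 14.5% did. At 24 h against 0 h, 0 of 8 rose (background 9.90%), or 1 with the replicate block (Jarid2), and 1 fell, Ezh1 (background 12.8%). Between 24 h and 48 h, 0 rose (5.27%) and 2 fell, Jarid2 and Phf19 (3.70%). Between 48 h and 72 h, 0 rose (5.60%) and 2 fell, Cbx2 and Jarid2 (3.78%). Limma called 0 of 8 genes from 72 h to 96 h, where 3.39% of all genes were called in either direction, and 0 of 8 from 96 h to 120 h, where 1.94% were. At an unadjusted p under 0.05, 3 genes passed in each of those 2 steps, and limma on voom weights also called 0 in each, while the paired fit with the replicate block called 1 from 72 h to 96 h (Jarid2) and 0 from 96 h to 120 h. At 120 h against 0 h, 0 rose (12.9%) and 4 fell, Cbx7, Ezh1, Jarid2 and Phf19 (10.1%), and the median change of the 8 genes was -0.74 beside -0.021 over all genes. At the looser threshold of adjusted p < 0.05, 5 of 8 passed at 6 h against 0 h (58.0% of all genes), 5 at 24 h against 0 h (55.6%), 3 at 48 h against 24 h (29.9%), 6 at 72 h against 48 h (40.9%), 3 at 96 h against 72 h (28.9%), 1 at 120 h against 96 h (17.8%) and 6 at 120 h against 0 h (52.2%). From 48 h to 72 h, 7 of 8 changes were below 0, beside a median change over all genes of 0.009. In that step 8 of 8 had an unadjusted p under 0.05. The share of all genes at that unadjusted level was not counted, so the counts at that level have no background. The duplicates of Cbx2, Cbx6, Cbx7 and Ezh2 were widest apart at 72 h. The comparisons with 0 h share the 0 h libraries. Centring each library on its median gene would add 0.12 to the changes at 6 h and 0.14 to those at 24 h, and would take the count of 24 h against 0 h to 2 with Jarid2 (0.56, adjusted p = 1.44e-05).

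**Figure D3:**
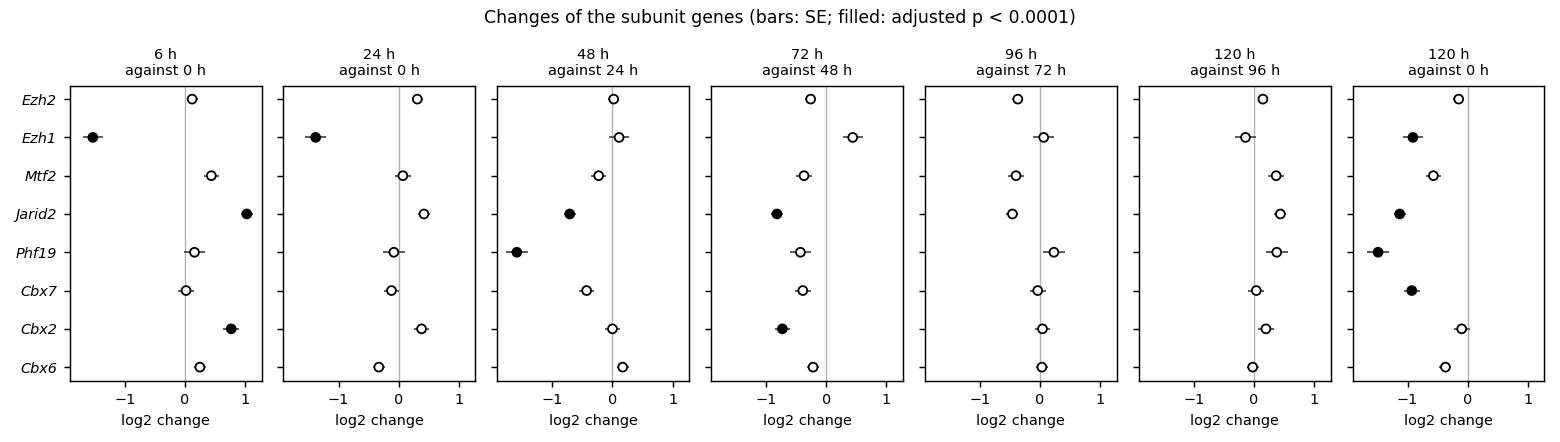
Log2 change of each subunit gene (horizontal axis) in 7 comparisons of time points, with bars for the SE and filled points for adjusted p < 0.0001. Filled points lie on both sides of 0 at 6 h, and only below 0 in the 4 later comparisons that have any.

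Levels between genes were compared per kilobase of exon. At 0 h the order was Mtf2 (59.8 CPM per kb), Jarid2 (54.0), Cbx7 (28.1), Ezh2 (26.9), Cbx6 (8.35), Ezh1 (7.73), Cbx2 (7.12) and Phf19 (3.85). The gaps between Cbx7 and Ezh2 (0.06 on the log2 scale), between Cbx6 and Ezh1 (0.11) and between Ezh1 and Cbx2 (0.12) were within the SD of these differences between duplicates (0.19, 0.19 and 0.20). At 120 h the order was Mtf2 (40.2), Jarid2 (24.7), Ezh2 (24.3), Cbx7 (14.7), Cbx2 (6.62), Cbx6 (6.47), Ezh1 (4.11) and Phf19 (1.38), with Jarid2 and Ezh2 (gap 0.02) and Cbx2 and Cbx6 (gap 0.03) inside their SD of 0.12. Ezh2 stood above Ezh1 and Cbx7 above Cbx2 at both times. At 6 h Jarid2 led with 110 CPM per kb and Ezh1 came last with 2.68.

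Across the 21 time-point means, the 7 genes other than Ezh1 were positively correlated with each other, to widely different degrees. Points of one course share libraries and a time trend, so these correlations are descriptions. Pearson r was 0.98 between Jarid2 and Mtf2, 0.92 between Cbx7 and Jarid2 and 0.90 between Cbx7 and Phf19, and was lowest among these 7 between Cbx6 and Ezh2 (0.37) and between Ezh2 and Phf19 (0.49). Between Ezh1 and the other 7 genes it ran from -0.47, with Ezh2, to 0.08, with Cbx6. Among genes whose mean was 1 log2 CPM or more, the gene most like Mtf2 was Jarid2 (r = 0.978), followed by Suz12, a core subunit of PRC2 (0.972), and Ranbp17 (0.972). Those most like Jarid2 were D16Ertd472e (0.988), Rnf125 (0.986) and Ranbp17 (0.984), and those most like Phf19 were Slc6a8 (0.976), Kank4 (0.975) and Islr2 (0.974). Ezh2 was most like Zfp988 (0.966), Rrm1, a subunit of ribonucleotide reductase (0.962), and Gm20939 (0.960). Cbx2 was most like Plk1, a mitotic kinase (0.927), Wrnip1 (0.921) and A930004D18Rik (0.907), Cbx7 was most like Bicral (0.954), Fzd5 (0.951) and Timeless (0.949), and Cbx6 was most like Osbpl2 (0.882), Cnnm2 (0.864) and Xntrpc (0.845). For Ezh1 they were Dynlt1c (0.933), Nipal3 (0.922) and Thap3 (0.919), which like Ezh1 had lower means at 6 h than at 0 h. Thap3, for instance, had a mean of 4.62 log2 CPM at 0 h and 2.50 at 6 h.

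The rest of the Polycomb machinery was read from a list of which 33 genes were analysed. Over time 27 of 33 changed, beside the 74.6% of all genes given above. At 6 h against 0 h, 7 rose, 2 fell and 24 did not pass, where 11.8% of all genes rose and 14.5% fell. Eed, the PRC2 core subunit that binds the methyl mark, stood at 6.99 and 7.02 log2 CPM at 0 h and 7.82 and 7.75 at 6 h (0.78, SE 0.12, adjusted p = 4.07e-06). Suz12, the scaffold of PRC2, stood at 7.74 and 7.69 at 0 h and 8.47 and 8.19 at 6 h, and did not pass (0.61, SE 0.19, adjusted p = 0.00605). Rnf2, the main ubiquitin ligase of PRC1, stood at 7.19 and 7.17 at 0 h and 8.38 and 8.18 at 6 h (1.10, SE 0.10, adjusted p = 4.42e-10), whereas its paralog Ring1 did not pass (0.12, SE 0.15, adjusted p = 0.529).

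At 120 h Rbbp7, a histone-binding subunit of the PRC2 core, was 1.24 above 0 h (SE 0.10, 2.37-fold, adjusted p = 2.79e-11), and is named here after its values were seen. Eed (-0.22), Suz12 (-0.49, adjusted p = 0.0291), Rnf2 (-0.16) and Ring1 (0.26) did not pass at 120 h against 0 h, with SE from 0.10 to 0.19. Of the 33 genes 7 rose and 2 fell, where 12.9% and 10.1% of all genes did. Of 20 PRC1 genes 6 rose and 2 fell, and of 8 PRC2 genes 1 rose (Rbbp7). Limma called 0 of 3 genes of the H2A deubiquitinase and 0 of 2 H3K27 demethylase genes. An unadjusted p under 0.05 was found in 21 of all 33 genes. The share of all genes at that unadjusted level was not counted, and 52.2% of them passed adjusted p < 0.05. The largest rise was that of Bmi1, a RING finger partner of Rnf2, from 1.31 and 0.78 log2 CPM at 0 h to 3.17 and 3.39 at 120 h (2.23, SE 0.16, adjusted p = 2.68e-12). Bmi1 was already 2.47 above 0 h at 6 h (SE 0.16, adjusted p = 8.16e-13). Scml2 followed, from -0.01 and 0.02 to 1.65 and 1.92 (1.77, SE 0.26, adjusted p = 1.50e-06), and then Yaf2, a paralog of Rybp, from 3.16 and 3.37 to 5.05 and 4.88 (1.70, SE 0.11, adjusted p = 7.20e-13). The 2 genes that fell were Pcgf1, from 3.68 and 3.85 to 2.63 and 2.93 (-0.99, SE 0.17, adjusted p = 2.56e-05), and Rybp, from 7.73 and 7.72 to 7.26 and 7.14 (-0.53, SE 0.09, adjusted p = 1.76e-05). The median change of the 33 genes was 0.22, beside -0.74 for the 8 subunit genes and -0.021 over all genes.

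**Figure D4:**
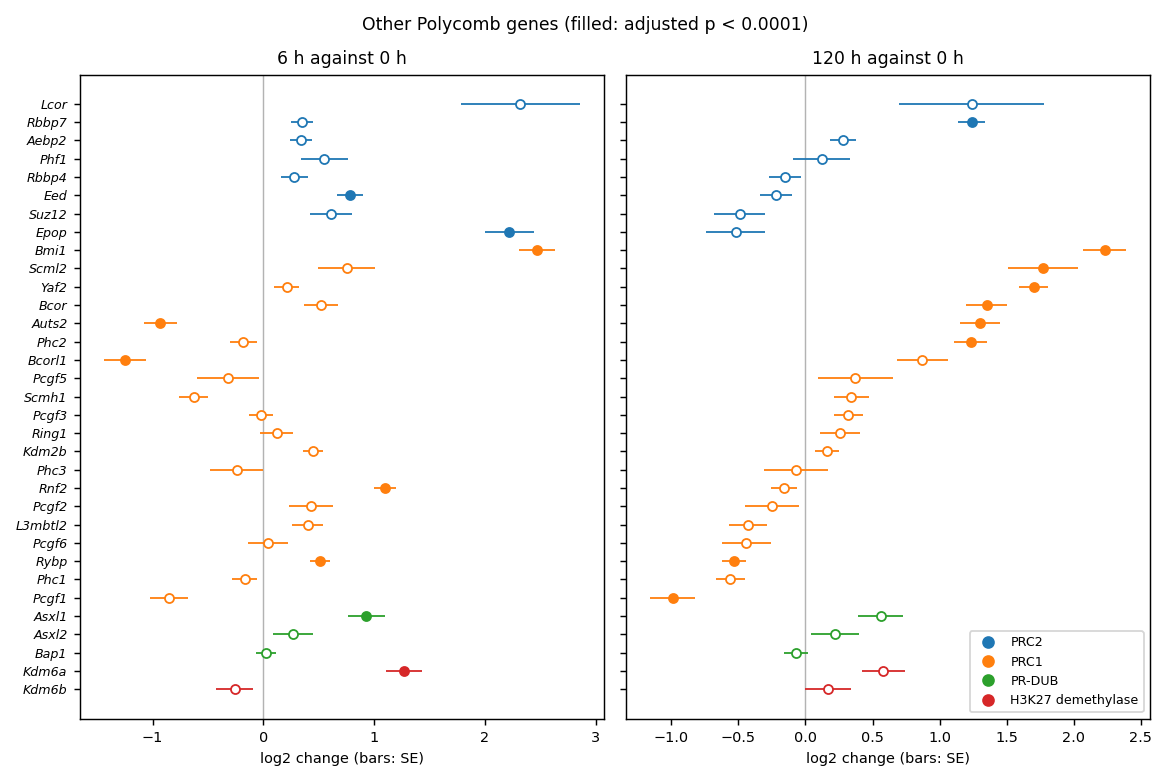
Log2 change (horizontal axis, bars for the SE) of 33 other Polycomb genes at 6 h and at 120 h against 0 h, colored by complex, with filled points for adjusted p < 0.0001. Eed and Rnf2 are filled above 0 at 6 h and open at 120 h (-0.22 and -0.16), while Bmi1 is filled at both times, at 2.47 and 2.23.

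Fibroblast markers were low at the start, at 24.3 and 28.2 CPM summed over 4 genes at 0 h, of which Thy1 made up most with 4.27 and 4.47 log2 CPM. The sum was 12.7 and 12.6 CPM at 6 h, when Ezh1 had fallen, and 94.5 and 85.2 CPM at 120 h. At 6 h against 0 h, 1 of the 4 fell (Col1a1) and 3 did not pass, namely Thy1 (-1.07), Col1a2 (0.38) and S100a4 (2.41). The 4 genes also moved apart at 120 h against 0 h. There 2 rose, Col1a1 (3.50) and Col1a2 (7.92), Thy1 fell (-2.55), and S100a4 (2.96) did not pass. The part of such cells in the fall of Ezh1 was not tested.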

How the data were processed

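Poly-A RNA was sequenced from 42 stranded libraries, with the time point and replicate of each taken from the labels. The authors trimmed with Trim Galore, used TopHat2 to align to mm10, and obtained counts for GENCODE vM2 genes from HTSeq. The authors retained genes above 1 CPM in at least 2 libraries, and applied edgeR for library size and voom for the transformation. Tool versions are not given in the sources used here, nor is the strand setting of the counting. The deposited values are log2 CPM with the voom offset of 0.5 reads. Every value returned a whole number of reads to within 2.91e-08 of a read. A level of 3 reads was 0.0571 to 0.316 CPM, and voom on the recovered reads returned the deposited values to within 5.51e-14.

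Gene identifiers were looked up in GENCODE vM21 on GRCm38 (14177 of 14296 found), whose union of exons gave the lengths. limma 3.58.1 in R 4.3.3 was fitted to the deposited log2 values (lmFit, eBayes with trend) with a factor of 21 time points over all 42 libraries and 21 residual degrees of freedom. Benjamini-Hochberg adjustment was made within a comparison, with adjusted p < 0.0001 as the threshold, and ratios were fitted after the partner gene was subtracted from every gene of its library. The fit was tested on simulated data. The letters A and B name the duplicate courses of the study and were taken to pair the libraries. As a check, residuals were correlated between time points within a letter, with a mean of 0.080 over 210 pairs, 68.6% of them positive.

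The members and lists were chosen with earlier results of these data known. Named were all members, Eed, Suz12, Ring1, Rnf2 and Bmi1, the 3 called Polycomb genes of largest rise and of largest fall at 120 h, and the 3 genes most correlated with each member. Alternatives were a replicate block, voom weights, median centring, a filter on low levels, no trend, a threshold of 0.05 and leaving out each library. Counting error sets only part of the precision. P-values measure the spread between duplicates.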

Additional observations from a re-analysis of the deposited data

How the results depend on the processing

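No result that was called, in the main fit or in the alternative, changed sign. Some steps that were not called did change sign with 1 library left out. Ezh1 from 96 h to 120 h ran from -0.67 to 0.38, and Cbx2 from 72 h to 96 h from -0.28 to 0.37. With the replicate block, the count of subunit genes called was 2 at 24 h against 0 h (1 without it) and 1 at 96 h against 72 h (0 without it), through Jarid2 in both, and no other call of a subunit gene, and no ratio call at 120 h against 0 h, changed. Ratios at other times were not run under the block. Of 71 results, 67 were the same under the block, 69 under voom weights, 69 under centring, 68 without the trend and 71 under the filter on low levels. Here the same means that a value kept its call, or that a count moved by no more than a set factor. Under the block, for instance, 30 other Polycomb genes had a time effect (27 without it) and 11 were called at 120 h against 0 h (9 without it). Voom weights and the fit without a trend each left 1 gene called at 72 h against 48 h (main count 2), because Cbx2 had adjusted p = 0.000107 and 0.000171. Without the trend, Ezh1 at 120 h had adjusted p = 0.000133. Centring gave 2 genes at 24 h against 0 h. At adjusted p < 0.05 the counts were 5 at 6 h and 5 at 24 h against 0 h, 6 at 72 h against 48 h, 3 at 96 h against 72 h, 1 at 120 h against 96 h, and 20 of 33 other Polycomb genes at 120 h against 0 h, where 52.2% of all genes passed. At that threshold the ratio differences at 120 h of Ezh1 to Ezh2 (-0.77), Cbx6 to Cbx7 (0.57), Phf19 to Mtf2 (-0.91) and Jarid2 to Mtf2 (-0.55) passed. Without the libraries of 72 h and 96 h, chosen after seeing the data, -0.77 (adjusted p = 1.04e-06), 0.57 (adjusted p = 4.56e-05) and -0.91 (adjusted p = 9.73e-06) passed at the main threshold, as did Mtf2 (-0.57, adjusted p = 2.92e-05).

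Leaving out 1 library at a time gave counts of 8 to 8 for a time effect, 2 to 3 at 6 h, 1 to 1 at 24 h, 1 to 2 at 48 h against 24 h, 1 to 2 at 72 h against 48 h, 0 to 0 in both later steps and 2 to 5 at 120 h against 0 h, where 2 was found without the 120 h library of replicate A. Ratio differences ran from -0.82 to -0.72 (Ezh1 to Ezh2), 0.73 to 0.93 (Cbx2 to Cbx7), 0.45 to 0.68 (Cbx6 to Cbx7), -0.94 to -0.89 (Phf19 to Mtf2) and -0.63 to -0.47 (Jarid2 to Mtf2). Other Polycomb genes numbered 25 to 28 for a time effect and 7 to 11 at 120 h. A fit that leaves out 1 library of a time point assumes that the lone library varies like the others. The ratio of Cbx8 to Cbx7 was not run, since Cbx8 is not analysed here. The SE of 0.17 to 0.18 for Ezh1 and Phf19 limits what these data can show for them. Without the libraries of 72 h and 96 h, the SE at 120 h against 0 h was 0.09 for Ezh1 and 0.13 for Phf19. The wide duplicates of those times thus enter every comparison, beside the limit of 2 libraries a time point.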
